A study of Homo sapiens with 6 samples.

Results

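The genes described here make cholesterol or sense and move it: 31 genes of sterol synthesis, of the SREBP machinery that controls it, and of sterol transport and storage. They were found in the deposited tables by matching Ensembl identifiers to gene symbols with GENCODE release 29, and all 31 were listed, out of 19437 genes in all. All 31 were above the expression limit and were tested, out of 12755 tested genes. The rule itself names symbols and uses no measured value, although the list was drawn up with earlier results of these data known.

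RNA-Seq libraries were made from SW480, an established human colorectal cancer cell line, to find genes that lie downstream of PCYT2. PCYT2 encodes the enzyme that makes CDP-ethanolamine, from which phosphatidylethanolamine is built. Cells carried a nontargeting hairpin (shNT) or 1 of 2 short hairpins against PCYT2, labelled shPcyt2-1 and shPcyt2-2 and written shPCYT2-1 and shPCYT2-2 here, with 2 libraries per group. According to the methods, the hairpins were delivered by a lentiviral pLKO.1 vector and infected cells were selected with puromycin, and how the nontargeting control was made is not given in the sources used here. Each group rests on 1 hairpin, and no cells with restored PCYT2 were sequenced. Nothing in the labels says that libraries of 1 group came from separate cultures, so each p-value measures the spread between these libraries, which may be technical. Values are in FPKM, which counts fragments relative to gene length and to library size, and are given in the order replicate 1, replicate 2. Read numbers cannot be had from such values. Relative depth, taken as the reciprocal of the commonest low value, ran from 5.26 to 6.89 over the libraries, and the 3 groups overlapped in it.

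Cells make cholesterol from acetyl-CoA, first to mevalonate and the isoprenoid farnesyl diphosphate, then to squalene, then to lanosterol, and finally through demethylation and reduction steps to cholesterol. SREBP transcription factors switch most of these genes on. SCAP escorts SREBP from the endoplasmic reticulum to the Golgi, where a pair of proteases releases its active part, and INSIG proteins hold SCAP back when sterols are plentiful. In many animal cells a low sterol level therefore raises the synthesis genes together.

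The epithelial identity of the line was seen in its transcripts. EPCAM lay between 258 and 312 FPKM, KRT8 between 2734 and 3861 FPKM, and CDX2, an intestinal transcription factor, between 9.88 and 16.9 FPKM in the 6 libraries. KRT20 was at or below 0.0952 FPKM, so this marker of differentiated colon cells was near 0. Of the same list, CDH17 and LGR5 were low as well, with shNT means of 0.984 and 0.470 FPKM. KRT18, CDH1 and VIL1 had shNT means of 3364, 14.9 and 39.0 FPKM. Of 11 markers of other cells, 7 were listed, and the highest was ALB at 3.52 to 7.19 FPKM. In bulk libraries such as these, fewer cells of a type and less RNA per cell cannot be told apart.

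PCYT2 itself (ENSG00000185813, chr17:81900965-81911464 of GRCh38, minus strand) was at 11.6 and 13.8 FPKM with shNT, 7.11 and 7.36 with shPCYT2-1, and 6.71 and 6.18 with shPCYT2-2. Every knockdown library was under the lower shNT library. On the log2 scale PCYT2 changed by -0.73 with shPCYT2-1 (standard error 0.10, limma adjusted p = 0.00202) and -0.88 with shPCYT2-2 (standard error 0.10, limma adjusted p = 0.00257). The hairpins differed by -0.15 (95% interval -0.37 to 0.08, limma adjusted p = 0.31). Taken as a single group of 4, the knockdown libraries gave PCYT2 a value of -0.80 that missed the threshold (limma adjusted p = 0.115).

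In shNT cells, FDPS, the synthase of farnesyl diphosphate, was the most abundant per length of the 31 genes, at 80.2 and 82.6 FPKM. SOAT1, which esterifies cholesterol for storage, was the least abundant, at 1.41 and 1.33 FPKM. INSIG1 lay at the median with 18.4 and 15.9 FPKM. The median of 17.1 FPKM compares with 6.89 FPKM for all tested genes, and 25 of the 31 genes lay above that gene median. Thus the whole pathway was transcribed in SW480 cells before knockdown, at levels that differed widely between steps.

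**Figure D1:**
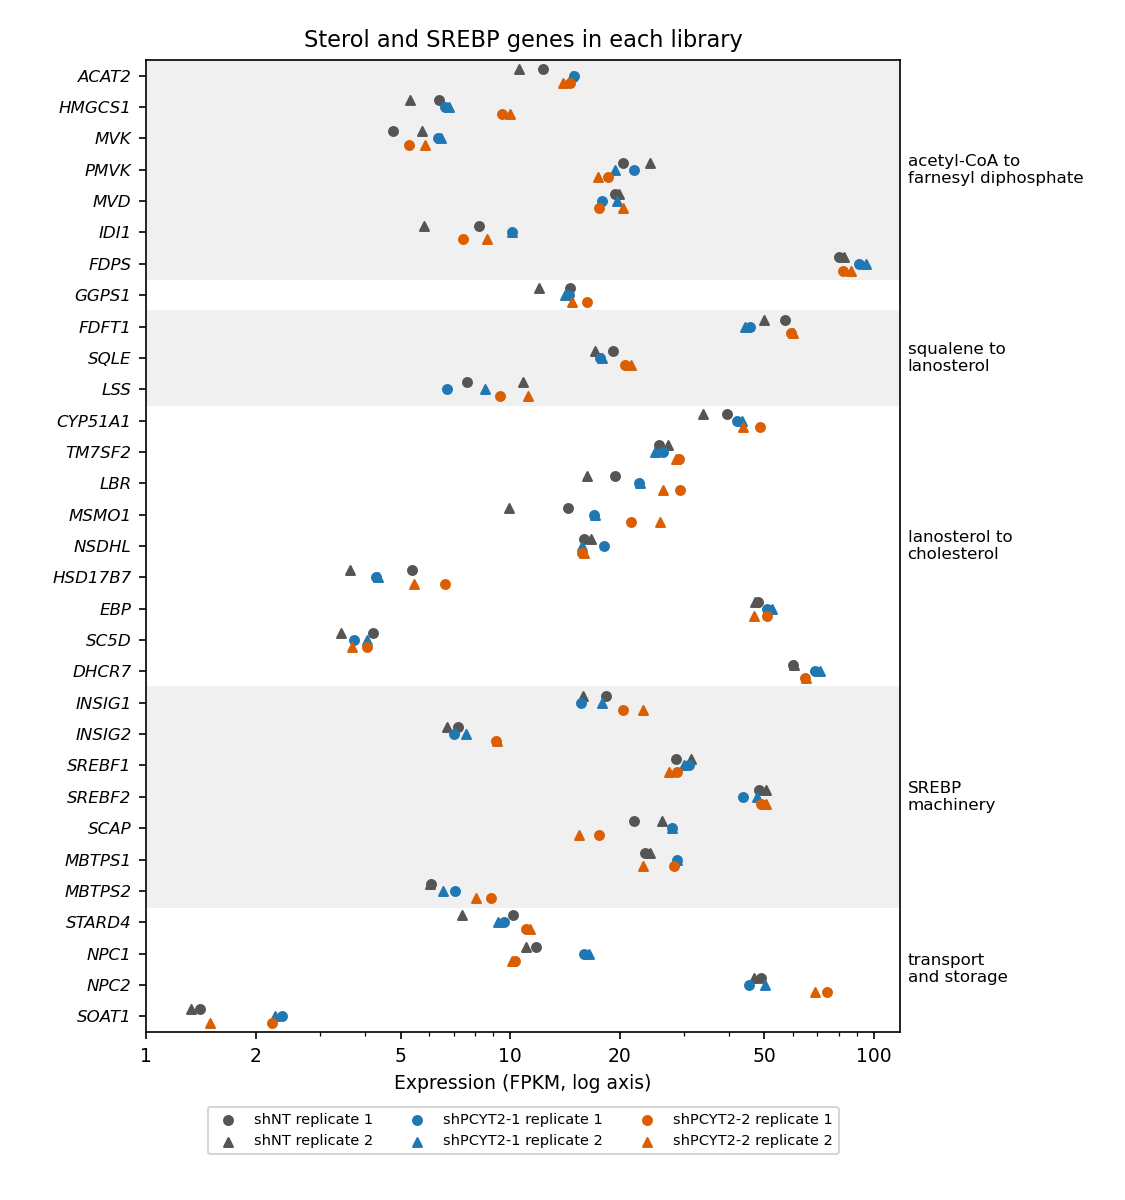
Expression of the 31 sterol and SREBP genes in each library, in FPKM on a log axis, in pathway order with the role of each block at the right (GGPS1, the geranylgeranyl branch, stands alone). Circles are replicate 1 and triangles replicate 2 of shNT (grey), shPCYT2-1 (blue) and shPCYT2-2 (orange); FDPS is the highest gene and SOAT1 the lowest, and the blue points of NPC1 and the orange points of NPC2 and SCAP stand apart from the other groups.

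With shPCYT2-1, 9 of the 31 genes (29.03%) passed an adjusted p of 0.05 in limma, 8 higher and 1 lower, in a comparison in which 26.7% of all tested genes passed (16.6% higher and 10.1% lower). ACAT2, IDI1, FDPS, LBR, MSMO1, DHCR7, NPC1 and SOAT1 rose and FDFT1 fell. With shPCYT2-2, 8 passed (25.8%), 7 higher and 1 lower, beside a background of 12.5% (7.71% higher and 4.76% lower). HMGCS1, CYP51A1, LBR, MSMO1, INSIG2, MBTPS2 and NPC2 rose and SCAP fell. Over both directions the share with shPCYT2-1 was near the background and that with shPCYT2-2 was above it. In this setting the share higher was above the background with each hairpin, at 25.8% beside 16.6% and 22.6% beside 7.71%. After median-ratio scaling 3 of the 31 were higher with shPCYT2-1, where 1422 of the 12755 tested genes were. The share higher with shPCYT2-1 was then no longer above the background. With shPCYT2-2, 6 of the 31 were higher, where 766 of the 12755 were, a share still above it. The list as a whole was given no test. The comparisons use the same shNT libraries, so a gene called in both is not seen by independent controls. LBR and MSMO1 were the genes called with both, that is, 22.2% of the calls with shPCYT2-1 and 25.0% of those with shPCYT2-2. The share of all tested genes called with both hairpins is not given here, so no excess is read from this overlap. With median-ratio scaling, or with the trend on GC content and length removed, LBR and MSMO1 lost the call with shPCYT2-1. Neither was then called with both hairpins.

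The median log2 fold change of the 31 genes was 0.11 with shPCYT2-1 and 0.16 with shPCYT2-2, against 0.07 and 0.04 over all tested genes. Of the 31, 21 had a value above 0 with shPCYT2-1 and 25 with shPCYT2-2, and 17 and 21 did after median-ratio scaling of the libraries. That scaling brought the median over all tested genes to 0.00027 and -0.00037. The share of all tested genes above 0 is not given here, so no excess is read from these counts. All 4 knockdown libraries lay above both shNT libraries for 8 genes (25.8%, where 20.7% of all tested genes did so): ACAT2, HMGCS1, CYP51A1, LBR, MSMO1, DHCR7, MBTPS2 and SOAT1. All 4 lay below for 0 genes (9.48% of all tested genes). With the 4 knockdown libraries taken as a single group against shNT, 0 of the 31 had a limma adjusted p under 0.05 and 6 (19.4%) had an unadjusted p under 0.05, as did 16.7% of all tested genes. In that fit, which counts differences between the hairpins as spread, 0.00784% of all tested genes passed, that is, 1 gene. With the mean of the hairpins tested in the fit with 3 groups, 7 passed, all higher, where 16.9% of all tested genes passed and 11.0% passed as higher.

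**Figure D2:**
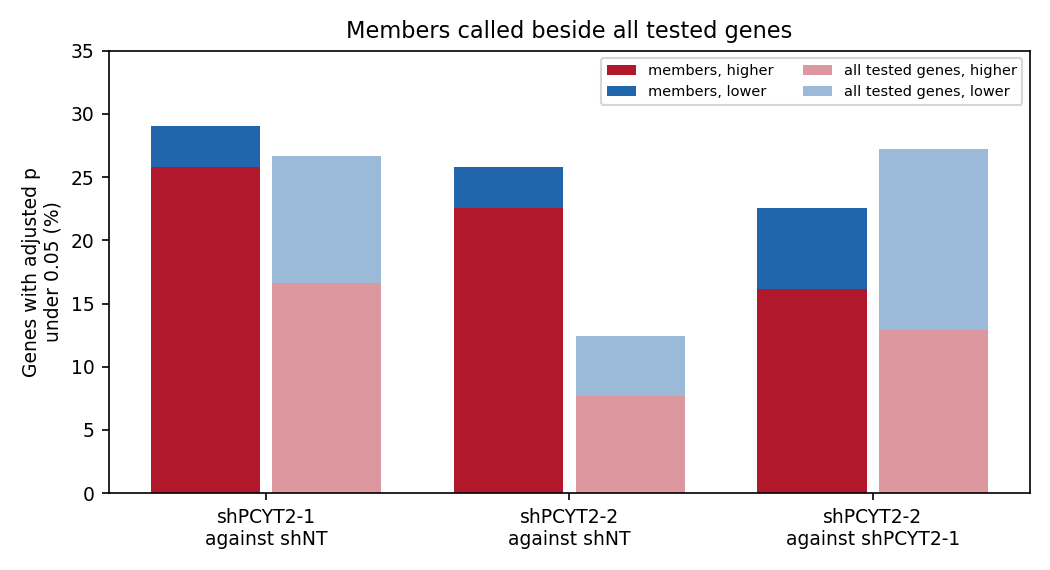
Share of genes (%) with a limma adjusted p under 0.05 in 3 comparisons, for the 31 sterol and SREBP genes (solid bars) and for all 12755 tested genes (pale bars), with higher genes in red and lower genes in blue. With shPCYT2-2 against shNT 25.8% of the 31 passed beside 12.5% of all genes, whereas the bars of the other comparisons are of like height (29.03% beside 26.7%, and 22.6% beside 27.2%).

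The upper part of the pathway, from acetyl-CoA to farnesyl diphosphate, held 7 genes. With shPCYT2-1, 3 of them rose (42.9%, beside 16.6% of all tested genes), and with shPCYT2-2 1 rose (14.3%, beside 7.71%), and none fell. HMGCS1 (ENSG00000112972, chr5:43289395-43313512, minus strand) encodes the cytosolic synthase that makes HMG-CoA. It was at 6.39 and 5.32 FPKM with shNT, 6.65 and 6.82 with shPCYT2-1, and 9.49 and 9.97 with shPCYT2-2. The shPCYT2-2 libraries lay above all others, and the shPCYT2-1 libraries lay just above shNT. The log2 fold change was 0.65 with shPCYT2-2 (standard error 0.10, limma adjusted p = 0.00738). With shPCYT2-1 it was 0.18 (limma adjusted p = 0.212), and the hairpins differed by 0.47 (standard error 0.10, limma adjusted p = 0.00894). Its promoter is shown because HMGCS1 is a textbook SREBP target. The window runs from 250 bases before to 50 bases after the RefSeq start (GRCh38.p14, chr5:43313363-43313662, minus strand), and the capitals mark the box CCAAT on either strand (ATTGG on the strand printed).

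HMGCS1: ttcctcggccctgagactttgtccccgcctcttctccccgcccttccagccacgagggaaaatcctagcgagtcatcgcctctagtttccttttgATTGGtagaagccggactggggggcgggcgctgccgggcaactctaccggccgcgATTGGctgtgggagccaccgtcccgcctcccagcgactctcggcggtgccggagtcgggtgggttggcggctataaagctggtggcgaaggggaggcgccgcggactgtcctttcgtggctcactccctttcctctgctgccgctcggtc

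The remaining enzymes that rose in this stretch did so with shPCYT2-1. ACAT2, the cytosolic thiolase that joins a pair of acetyl-CoA molecules, was at 12.4 and 10.6 FPKM with shNT, 15.0 and 14.8 with shPCYT2-1, and 14.6 and 14.0 with shPCYT2-2. All 4 knockdown libraries were above shNT, with a log2 fold change of 0.36 with shPCYT2-1 (standard error 0.09, limma adjusted p = 0.0205), and the value with shPCYT2-2 was 0.30 (limma adjusted p = 0.0592). Exons of ACAT2 overlap those of TCP1 on the opposite strand, and since the strand of the counting is not given in the sources used here, reads of these genes cannot be told apart. TCP1 itself rose by 0.22 with shPCYT2-1 (limma adjusted p = 0.0313).

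IDI1, which interconverts the C5 isoprenoid units, was at 8.20 and 5.80 FPKM with shNT, 10.1 and 10.2 with shPCYT2-1, and 7.43 and 8.65 with shPCYT2-2. The shPCYT2-1 libraries were the highest, and shPCYT2-2 overlapped shNT. Its log2 fold change with shPCYT2-1 was 0.49 (standard error 0.14, limma adjusted p = 0.0295). FDPS was at 80.2 and 82.6 FPKM with shNT, 91.0 and 95.3 with shPCYT2-1, and 82.3 and 86.6 with shPCYT2-2. Here too shPCYT2-1 stood above the rest, by 0.19 on the log2 scale (standard error 0.06, limma adjusted p = 0.0445). The kinases MVK and PMVK and the decarboxylase MVD, the middle steps of mevalonate use, did not pass in any comparison. Nor did GGPS1, which turns farnesyl into geranylgeranyl diphosphate, at 12.03 to 16.2 FPKM over the 6 libraries.

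Several of these calls rested on single libraries or on the processing. Without shNT replicate 2, the library with the lower HMGCS1, ACAT2 and IDI1, the values with shPCYT2-1 were 0.25 for ACAT2 (limma adjusted p = 0.0962), 0.28 for IDI1 (0.145) and 0.21 for FDPS (0.067), and leaving out either shPCYT2-1 library also lost all 3 calls. HMGCS1 with shPCYT2-2 was 0.68 without shPCYT2-2 replicate 1 (limma adjusted p = 0.0626), and the hairpins differed by 0.46 when shPCYT2-1 replicate 1 was left out (0.053) and by 0.44 when shPCYT2-2 replicate 2 was (0.0581). FDPS was 0.17 without shNT replicate 1 (limma adjusted p = 0.0906), was also lost without either shPCYT2-2 library, and was 0.11 after median-ratio scaling (0.302), with adjusted p-values of 0.111 with no variance trend and 0.0576 with only the 2 groups compared. IDI1 was 0.42 after median-ratio scaling (limma adjusted p = 0.0653) and 0.37 with the trend on GC content and length removed (0.0567).

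Squalene and lanosterol are made by the next 3 enzymes, and 1 of them fell with shPCYT2-1 (beside 10.1% of all tested genes). FDFT1, the squalene synthase that commits farnesyl diphosphate to sterols, was at 57.1 and 49.8 FPKM with shNT, 45.6 and 44.1 with shPCYT2-1, and 59.3 and 59.9 with shPCYT2-2. The shPCYT2-1 libraries were below both shNT libraries and the shPCYT2-2 libraries above both. The log2 fold change was -0.25 with shPCYT2-1 (standard error 0.07, limma adjusted p = 0.0395), and the value with shPCYT2-2 was 0.16 (limma adjusted p = 0.185). Between the hairpins it differed by 0.40 (standard error 0.07, limma adjusted p = 0.0049), and this difference passed under each of 15 alternatives, with an adjusted p of at most 0.0409. The fall against shNT did not: it was -0.15 without shNT replicate 1 (limma adjusted p = 0.129) and -0.22 without shPCYT2-1 replicate 2 (0.167), and the call was also lost without shPCYT2-1 replicate 1, without either shPCYT2-2 library, with no variance trend (0.0828) and with only the 2 groups compared (0.0634). SQLE, the epoxidase that is a rate-limiting step, and LSS, which closes the rings, were called in no comparison. SQLE was at 17.1 to 21.5 FPKM and LSS at 6.73 to 11.2 FPKM over the libraries.

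From lanosterol to cholesterol, 9 genes were measured, of which 3 rose with each hairpin (33.3%, beside 16.6% of all tested genes with shPCYT2-1 and 7.71% with shPCYT2-2), and none fell. MSMO1 (ENSG00000052802, chr4:165327623-165343160, plus strand) encodes the oxidase that starts removal of the methyl groups at C4. Its level was 14.4 and 9.95 FPKM with shNT, 17.0 and 17.1 with shPCYT2-1, and 21.4 and 25.9 with shPCYT2-2. The 3 groups did not overlap and stood in the order shNT, shPCYT2-1, shPCYT2-2. The log2 fold change was 0.47 with shPCYT2-1 (standard error 0.15, limma adjusted p = 0.0433) and 0.92 with shPCYT2-2 (standard error 0.15, limma adjusted p = 0.00872), the largest rise among the 31 genes in either comparison. Between the hairpins the difference of 0.44 missed the threshold (95% interval 0.11 to 0.78, limma adjusted p = 0.0534).

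LBR (ENSG00000143815, chr1:225401502-225428925, minus strand) encodes the lamin B receptor of the inner nuclear membrane, which is also a C14 sterol reductase. It was at 19.5 and 16.3 FPKM with shNT, 22.7 and 22.8 with shPCYT2-1, and 29.4 and 26.3 with shPCYT2-2. As for MSMO1, the groups did not overlap and the shPCYT2-2 libraries were the highest. LBR rose by 0.33 with shPCYT2-1 (standard error 0.09, limma adjusted p = 0.0309) and by 0.62 with shPCYT2-2 (standard error 0.09, limma adjusted p = 0.00738), and the hairpins differed by 0.28 (95% interval 0.07 to 0.50, limma adjusted p = 0.055). TM7SF2, the other C14 reductase of the pathway, was at 25.7 and 27.1 FPKM with shNT, 26.3 and 25.1 with shPCYT2-1, and 29.1 and 28.5 with shPCYT2-2. Its 95% intervals were -0.19 to 0.12 with shPCYT2-1 and -0.03 to 0.28 with shPCYT2-2, so a rise of the size seen for LBR with shPCYT2-2 lay outside them. Exons of TM7SF2 overlap those of VPS51 on the same strand, and the part of VPS51 in its values was not tested. The promoters of MSMO1 (chr4:165327419-165327718, plus strand) and LBR (chr1:225428772-225429071, minus strand) are set side by side because these genes were the ones called with both hairpins. The windows and the capitals are as for HMGCS1 (RefSeq, GRCh38.p14). That of MSMO1 holds 4 CCAAT boxes and that of LBR 0. Bases just after the start were also searched for in GENCODE transcripts of the same gene. A match was found for MSMO1 and not for LBR, so the LBR window is not shown to lie at a start of that release.

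MSMO1: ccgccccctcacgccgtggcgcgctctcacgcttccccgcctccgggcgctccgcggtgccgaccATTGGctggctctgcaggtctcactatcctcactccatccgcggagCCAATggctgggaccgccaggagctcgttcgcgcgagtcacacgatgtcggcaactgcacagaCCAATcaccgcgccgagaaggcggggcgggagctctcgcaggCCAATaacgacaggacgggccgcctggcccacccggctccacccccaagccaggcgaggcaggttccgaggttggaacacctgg

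LBR: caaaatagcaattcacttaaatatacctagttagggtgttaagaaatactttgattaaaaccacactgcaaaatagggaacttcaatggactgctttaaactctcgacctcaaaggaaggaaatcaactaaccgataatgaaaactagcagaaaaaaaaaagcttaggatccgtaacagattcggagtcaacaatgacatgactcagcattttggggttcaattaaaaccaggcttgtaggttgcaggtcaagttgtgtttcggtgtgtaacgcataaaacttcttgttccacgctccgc

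Calls of these 2 genes with shPCYT2-1 depended on shNT replicate 2 and on either shPCYT2-1 library. Without shNT replicate 2, MSMO1 was at 0.23 (limma adjusted p = 0.211) and LBR at 0.21 (0.145). With shPCYT2-2 both calls were lost without shPCYT2-2 replicate 1, at 1.05 for MSMO1 (limma adjusted p = 0.0594) and 0.54 for LBR (0.0816), and MSMO1 also without shPCYT2-2 replicate 2 (0.79, limma adjusted p = 0.0585). The call of MSMO1 with shPCYT2-1 was kept under 3 of 15 alternatives. Among other settings it was lost under the replicate block (limma adjusted p = 0.0575), and it was also lost without either shPCYT2-2 library (0.47, limma adjusted p = 0.0587 and 0.0591). For LBR with shPCYT2-1 median-ratio scaling gave 0.26 (limma adjusted p = 0.0645), a correction for GC content and length 0.18 (0.0689), and a fit with no variance trend an adjusted p of 0.0545, and for MSMO1 these settings gave 0.40 (0.104), 0.33 (0.0988) and an adjusted p of 0.0689.

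Among the other enzymes of this stretch, CYP51A1 rose with shPCYT2-2 and DHCR7 with shPCYT2-1. CYP51A1, the lanosterol demethylase, was at 39.5 and 34.0 FPKM with shNT, 42.2 and 43.5 with shPCYT2-1, and 48.8 and 43.7 with shPCYT2-2. All 4 knockdown libraries were above shNT, by 0.33 with shPCYT2-2 (standard error 0.09, limma adjusted p = 0.0421), and the value with shPCYT2-1 was 0.22 (limma adjusted p = 0.0902). Exons of CYP51A1 overlap those of AC000120.2 and AC000120.3 on the same strand, and the part of these genes in its values was not tested. DHCR7, which makes cholesterol in the last step of 1 route, was at 60.1 and 60.4 FPKM with shNT, 68.9 and 71.0 with shPCYT2-1, and 64.6 and 65.3 with shPCYT2-2. Again all 4 knockdown libraries were above shNT, by 0.21 with shPCYT2-1 (standard error 0.06, limma adjusted p = 0.0282), and the value with shPCYT2-2 was 0.11 (limma adjusted p = 0.245). CYP51A1 was at 0.22 without shNT replicate 2 (limma adjusted p = 0.183) and 0.25 without shPCYT2-2 replicate 1 (0.23), and was also lost without shPCYT2-2 replicate 2, while DHCR7 was lost without shNT replicate 2 (0.21, limma adjusted p = 0.0578) and without either shPCYT2-1 library. Median-ratio scaling gave 0.13 for DHCR7 (limma adjusted p = 0.183) and 0.27 for CYP51A1 (0.0644), a fit with no variance trend lost both (0.0757 and 0.0834), and a correction for GC content and length gave 0.22 for CYP51A1 (0.0552). NSDHL and HSD17B7, which work with MSMO1 in C4 demethylation, EBP, the sterol isomerase, and SC5D, the desaturase, were called in no comparison. HSD17B7 has a near-identical pseudogene, so its 3.62 to 6.64 FPKM are uncertain.

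**Figure D3:**
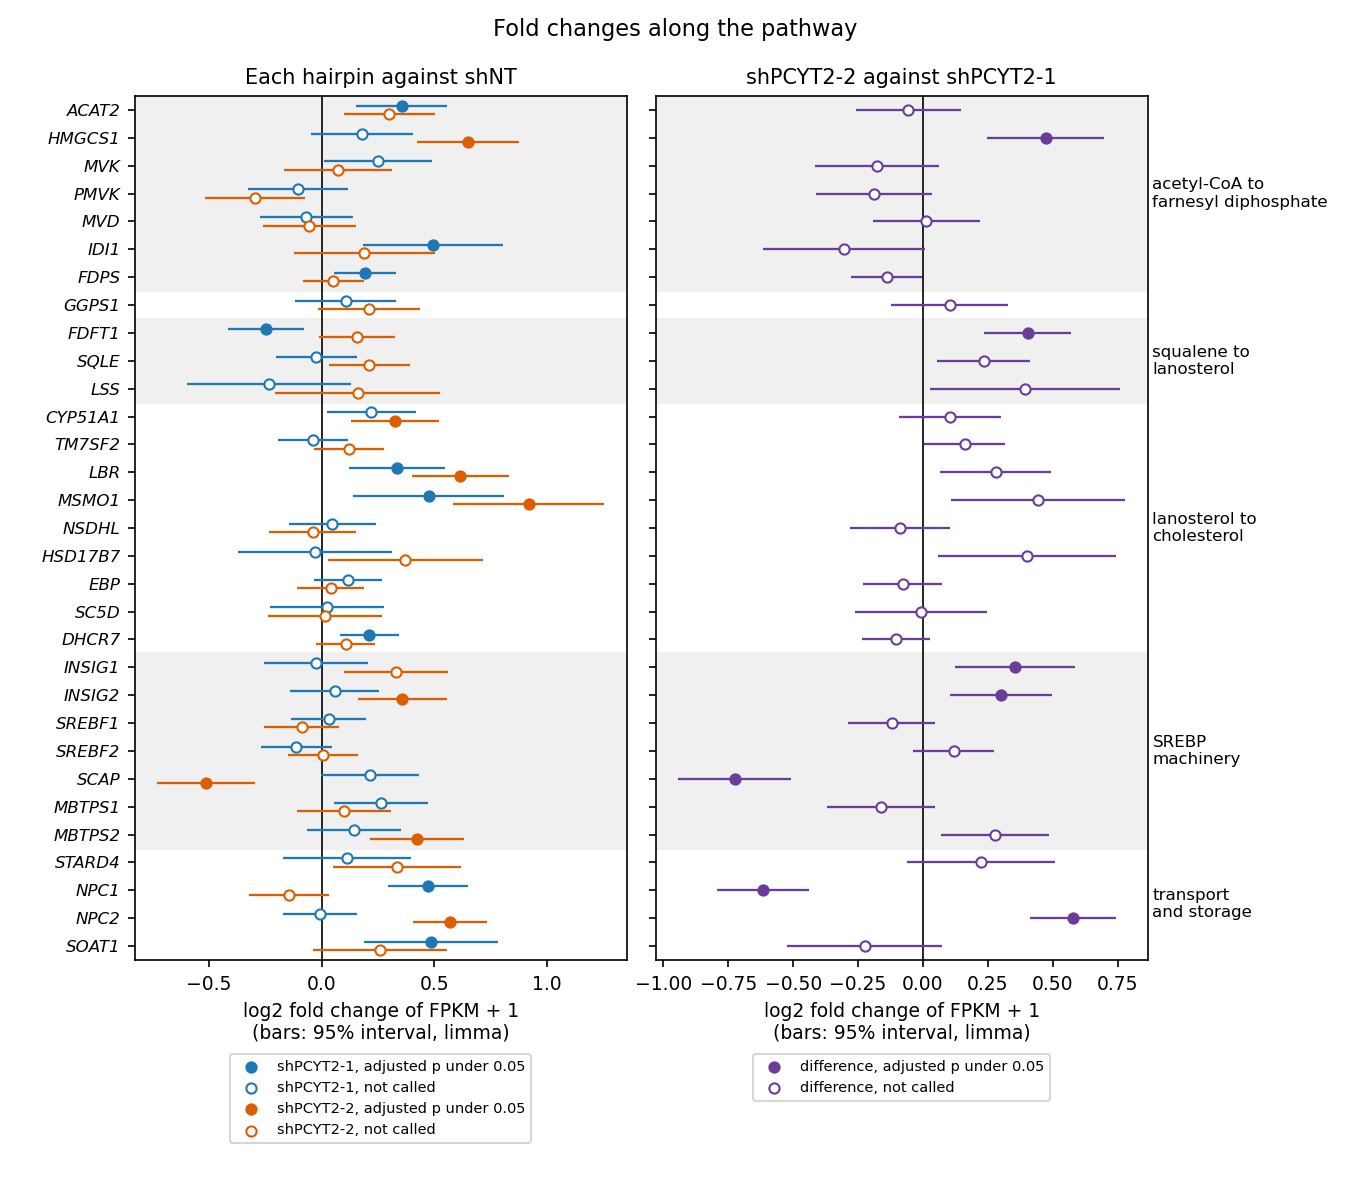
log2 fold change of FPKM + 1 for the 31 genes in pathway order, with 95% intervals from limma, for shPCYT2-1 (blue) and shPCYT2-2 (orange) against shNT at the left and for shPCYT2-2 against shPCYT2-1 (purple) at the right; filled circles have an adjusted p under 0.05. MSMO1 and LBR are filled for both hairpins, SCAP lies at -0.51 with shPCYT2-2, and NPC1 and NPC2 lie on opposite sides of 0 in the right panel (-0.62 and 0.58).

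The SREBP machinery held 7 genes, of which none passed with shPCYT2-1 (beside 26.7% of all tested genes) and 3 passed with shPCYT2-2, 2 higher and 1 lower (42.9%, beside 12.5%). The transcripts of the transcription factors themselves were called in no comparison. SREBF1, the gene of the lipogenic SREBP-1, was at 28.5 and 31.4 FPKM with shNT, 31.1 and 30.1 with shPCYT2-1, and 28.9 and 27.3 with shPCYT2-2. SREBF2, the gene of the sterol-directed SREBP-2, was at 48.4 and 50.7 FPKM with shNT, 43.7 and 47.9 with shPCYT2-1, and 49.01 and 50.5 with shPCYT2-2. The 95% intervals of the log2 fold change were -0.14 to 0.20 and -0.26 to 0.08 for SREBF1, and -0.27 to 0.04 and -0.15 to 0.16 for SREBF2, with shPCYT2-1 and shPCYT2-2. Transcript levels say nothing of how much SREBP protein was cleaved.

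SCAP (ENSG00000114650, chr3:47413694-47477126, minus strand), the escort of SREBP, showed the largest difference between the hairpins among the 31 genes. It was at 22.0 and 26.1 FPKM with shNT, 28.0 and 27.9 with shPCYT2-1, and 17.5 and 15.5 with shPCYT2-2. The shPCYT2-2 libraries were below all others and the shPCYT2-1 libraries above all others. SCAP fell by 0.51 on the log2 scale with shPCYT2-2 (standard error 0.10, limma adjusted p = 0.0142), whereas the value with shPCYT2-1 was 0.21 (limma adjusted p = 0.128). The hairpins differed by -0.73 (standard error 0.10, limma adjusted p = 0.001), and that difference passed under all 15 alternatives (adjusted p at most 0.018). The fall against shNT was -0.39 without shNT replicate 2 (limma adjusted p = 0.0643), -0.60 without shPCYT2-2 replicate 1 (0.0666) and -0.43 without shPCYT2-2 replicate 2 (0.0721).

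Both INSIG genes, whose products retain SCAP in the endoplasmic reticulum, were higher with shPCYT2-2 than with shPCYT2-1. INSIG1, itself an SREBP target, was at 18.4 and 15.9 FPKM with shNT, 15.7 and 17.9 with shPCYT2-1, and 20.4 and 23.2 with shPCYT2-2. INSIG2 was at 7.21 and 6.72 FPKM with shNT, 7.03 and 7.55 with shPCYT2-1, and 9.18 and 9.24 with shPCYT2-2. For both genes the shPCYT2-2 libraries lay above all others, while shPCYT2-1 overlapped shNT. The hairpins differed by 0.35 for INSIG1 (standard error 0.10, limma adjusted p = 0.0314) and 0.30 for INSIG2 (standard error 0.09, limma adjusted p = 0.0324), and INSIG2 rose against shNT by 0.36 with shPCYT2-2 (standard error 0.09, limma adjusted p = 0.0319). INSIG1 with shPCYT2-2 was at 0.33 (95% interval 0.10 to 0.56, limma adjusted p = 0.065). Leaving out shPCYT2-1 replicate 1 gave a difference of 0.26 for INSIG1 (limma adjusted p = 0.196), and leaving out shPCYT2-2 replicate 2 gave 0.27 (0.183). For INSIG2 the difference was lost without any 1 of the 4 knockdown libraries, and the rise without any library except shNT replicate 1 (limma adjusted p up to 0.142, without shNT replicate 2). The rise of INSIG2 was 0.17 with the trend on GC content and length removed (limma adjusted p = 0.194) and had an adjusted p of 0.052 with only the 2 groups compared, and the INSIG1 difference had an adjusted p of 0.0534 with no variance trend.

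The proteases that release SREBP were measured as well. MBTPS2, the site-2 protease, was at 6.06 and 6.03 FPKM with shNT, 7.06 and 6.53 with shPCYT2-1, and 8.86 and 8.04 with shPCYT2-2. It rose by 0.42 with shPCYT2-2 (standard error 0.09, limma adjusted p = 0.0223), with all 4 knockdown libraries above shNT. The call was lost without shNT replicate 2 (0.42, limma adjusted p = 0.0924), shPCYT2-2 replicate 1 (0.36, limma adjusted p = 0.129) or shPCYT2-2 replicate 2 (0.48, limma adjusted p = 0.0503), and with the trend on GC content and length removed (0.23, limma adjusted p = 0.0925). Exons of MBTPS2 overlap those of YY2 on the same strand, and the part of YY2 in its values was not tested. MBTPS1, the site-1 protease, was called in no comparison, and its shPCYT2-2 libraries were far apart, at 28.3 and 23.2 FPKM.

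The box CACNCCAC, a plain spelling of the SREBP element, was searched on both strands of the promoter windows of the 28 genes that the RefSeq table holds. ACAT2, FDFT1 and SQLE have no entry. It was found in 3 of the 28 (10.7%), SC5D, INSIG1 and SREBF2, and in 5.87% of 35116 promoters of the table. INSIG1 (chr7:155297628-155297927, plus strand) and SREBF2 (chr22:41832855-41833154, plus strand) are printed because both belong to the machinery itself. Capitals mark CACNCCAC and CCAAT, read on either strand.

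INSIG1: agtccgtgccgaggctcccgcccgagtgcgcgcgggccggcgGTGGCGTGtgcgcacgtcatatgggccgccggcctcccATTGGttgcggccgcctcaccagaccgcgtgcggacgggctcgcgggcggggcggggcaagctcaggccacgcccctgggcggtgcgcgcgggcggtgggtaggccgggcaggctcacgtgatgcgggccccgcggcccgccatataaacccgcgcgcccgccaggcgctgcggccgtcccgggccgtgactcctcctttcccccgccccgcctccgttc

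SREBF2: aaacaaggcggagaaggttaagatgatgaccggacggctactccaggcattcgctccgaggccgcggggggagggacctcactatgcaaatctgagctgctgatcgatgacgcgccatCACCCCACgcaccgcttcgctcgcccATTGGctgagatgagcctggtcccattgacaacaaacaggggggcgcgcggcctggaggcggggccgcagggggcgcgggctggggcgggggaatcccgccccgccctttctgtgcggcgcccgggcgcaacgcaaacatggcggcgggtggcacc

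CCAAT, bound by NF-Y beside many SREBP elements, was in 17 of the 28 (60.7%) and in 34.6% of all promoters. The box GGGCGG of Sp1 was in 23 (82.1%, beside 45.0%) and the E-box CACGTG in 4 (14.3%, beside 7.26%). None of these boxes contains another, and a match is a description of the letters, not a bound site. For PMVK, IDI1, GGPS1, LBR, INSIG1, MBTPS1, MBTPS2 and NPC1 the search in GENCODE transcripts found no match to the bases after the start. Their windows stayed in all of these counts, although they are not shown to lie at a start of that release. HMGCS1, MSMO1 and LBR, printed above, hold no CACNCCAC in their windows.

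Of the 4 genes of sterol transport and storage, 2 rose with shPCYT2-1 (beside 16.6% of all tested genes) and 1 with shPCYT2-2 (beside 7.71%), and the NPC genes differed between the hairpins in opposite directions. NPC1 and NPC2 encode the membrane and the soluble protein that together export cholesterol from lysosomes. NPC1 (ENSG00000141458, chr18:23506184-23586898, minus strand) was at 11.8 and 11.1 FPKM with shNT, 16.0 and 16.4 with shPCYT2-1, and 10.3 and 10.1 with shPCYT2-2. The shPCYT2-1 libraries stood above all others, and the shPCYT2-2 libraries were the lowest. Its log2 fold change was 0.47 with shPCYT2-1 (standard error 0.08, limma adjusted p = 0.00415), -0.15 with shPCYT2-2 (limma adjusted p = 0.238) and -0.62 between the hairpins (standard error 0.08, limma adjusted p = 0.000848). NPC2 (ENSG00000119655, chr14:74476192-74494177, minus strand) went the other way, at 48.996 and 46.9 FPKM with shNT, 45.3 and 50.1 with shPCYT2-1, and 74.3 and 69.0 with shPCYT2-2. Here the shPCYT2-2 libraries stood above all others, and shPCYT2-1 overlapped shNT. NPC2 rose by 0.57 with shPCYT2-2 (standard error 0.07, limma adjusted p = 0.0041), and the hairpins differed by 0.58 (standard error 0.07, limma adjusted p = 0.000845).

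The NPC1 rise and the differences between the hairpins for both genes passed under all 15 alternatives, with an adjusted p of at most 0.029. The rise of NPC2 was 0.52 without shPCYT2-2 replicate 1 (limma adjusted p = 0.0584). Exons of NPC1 overlap those of RMC1 and exons of NPC2 those of ISCA2 on the opposite strand. RMC1 was at 0.30 with shPCYT2-1 (limma adjusted p = 0.029), at 0.20 with shPCYT2-2 (0.14), and ISCA2 stood at 0.11 and 0.40 (limma adjusted p = 0.598 and 0.102), on the log2 scale. Their part in the values of NPC1 and NPC2 was not tested.

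SOAT1 was at 1.41 and 1.33 FPKM with shNT, 2.36 and 2.26 with shPCYT2-1, and 2.22 and 1.50 with shPCYT2-2. All 4 knockdown libraries lay above shNT, and replicate 2 of shPCYT2-2 lay close to it. The log2 fold change with shPCYT2-1 was 0.48 (standard error 0.13, limma adjusted p = 0.0267), on a scale with 1 added that understates changes of so low a gene, and the ratio of the mean FPKM was 1.69. The call was lost without any 1 of the shNT or shPCYT2-1 libraries (limma adjusted p between 0.0653 and 0.116). STARD4, a cytosolic sterol carrier, was called in no comparison, at 7.38 to 11.3 FPKM over the libraries.

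**Figure D4:**
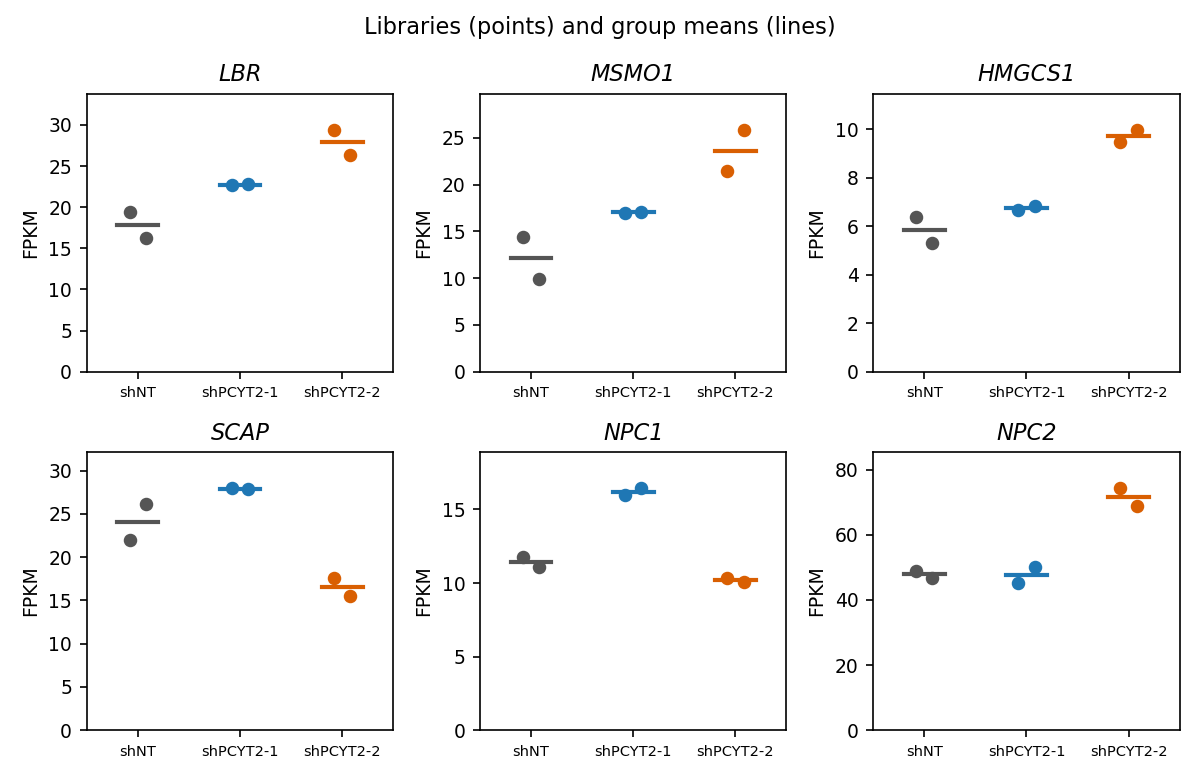
FPKM of LBR, MSMO1, HMGCS1, SCAP, NPC1 and NPC2 in each library (points) with the mean of each group of 2 (lines), on axes that start at 0. LBR and MSMO1 step up from shNT to shPCYT2-1 to shPCYT2-2, HMGCS1 and NPC2 are high with shPCYT2-2, SCAP is low with shPCYT2-2 (17.5 and 15.5), and NPC1 is high with shPCYT2-1 (16.0 and 16.4).

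Tested directly against each other, the hairpins differed at 7 of the 31 genes (22.6%), in a comparison in which 27.2% of all tested genes passed (12.9% higher and 14.3% lower with shPCYT2-2). HMGCS1, FDFT1, INSIG1, INSIG2 and NPC2 were higher with shPCYT2-2 and SCAP and NPC1 were lower. FDFT1, SCAP, NPC1 and NPC2 passed under every alternative, the other 3 did not. In this fit the share was near the background. The count moved with the processing and when single libraries were left out. With only the 2 groups compared, 13 of the 31 passed, where 3787 of all 12755 tested genes did. MSMO1 and LBR, called with both hairpins, had differences just over the threshold.

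Called in no comparison were 15 genes: MVK, PMVK, MVD, GGPS1, SQLE, LSS, TM7SF2, NSDHL, HSD17B7, EBP, SC5D, SREBF1, SREBF2, MBTPS1 and STARD4. Their log2 fold changes ran from -0.23 (LSS) to 0.26 (MBTPS1) with shPCYT2-1 and from -0.30 (PMVK) to 0.37 (HSD17B7) with shPCYT2-2. The 95% intervals reached -0.60 to 0.49 with shPCYT2-1 and -0.52 to 0.71 with shPCYT2-2, the lowest and highest bounds of any of these genes.

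The shNT libraries themselves differed at sterol genes. Replicate 2 was lower than replicate 1 for 19 of the 31, and lower for 49.8% of all tested genes. MSMO1 showed the largest fall (-0.49 on the log2 scale) and LSS the largest rise (0.46). Counts of calls moved with single libraries. With shPCYT2-1 the 9 calls became 2 without shNT replicate 2 and 1 without either shPCYT2-1 library. With shPCYT2-2 the 8 calls became 15 without shNT replicate 1, 4 without shNT replicate 2, 0 without shPCYT2-2 replicate 1 and 3 when shPCYT2-2 replicate 2 was left out. The calls over all 12755 tested genes moved in the same direction, from 3406 to 1743 without shNT replicate 2 and to 1166 and 1831 without the shPCYT2-1 libraries, and, with shPCYT2-2, from 1591 to 1900, 403, 131 and 616 under the settings named. With no expression limit, where 19437 genes were tested, 2 calls (NPC1 and DHCR7) and 0 calls were made, and median-ratio scaling gave 4 calls with shPCYT2-1 and 8 with shPCYT2-2. Of 24 calls in the 3 comparisons, all kept their sign under 15 alternatives and 5 kept an adjusted p under 0.05 under each: NPC1 with shPCYT2-1, and the differences between the hairpins of FDFT1, SCAP, NPC1 and NPC2.

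**Figure D5:**
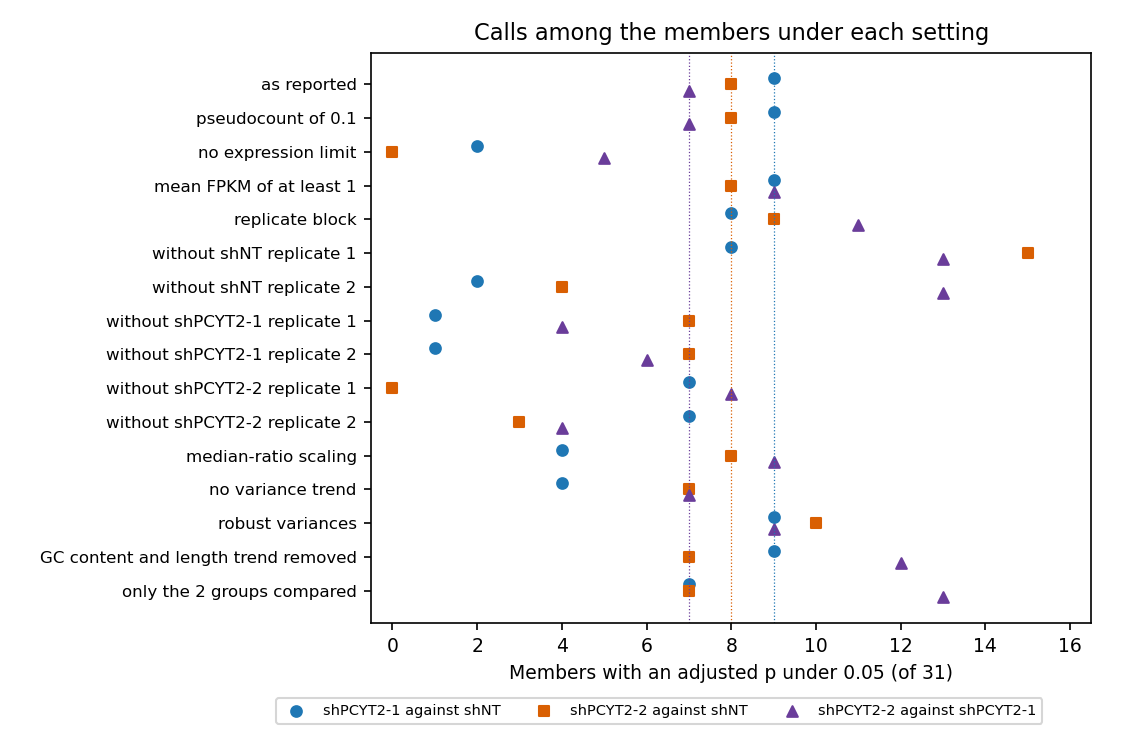
Number of the 31 genes with a limma adjusted p under 0.05 as reported and under each alternative, for shPCYT2-1 against shNT (circles), shPCYT2-2 against shNT (squares) and shPCYT2-2 against shPCYT2-1 (triangles); dotted lines mark the reported 9, 8 and 7. The squares run from 0 to 15 as single libraries are left out, and the circles from 1 to 8.

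Further genes of the pathway, taken from lists of known roles, were read beside the 31. Of 14 lipogenic genes under SREBP-1, 5 rose with shPCYT2-1 (35.7%, beside 16.6% of all tested genes) and 2 with shPCYT2-2 (14.3%, beside 7.71%), and none fell. ELOVL5, an elongase of polyunsaturated fatty acids, was at 31.1 and 27.9 FPKM with shNT and 46.6 and 46.4 with shPCYT2-1. It rose by 0.64 (limma adjusted p = 0.00107), and ELOVL6 rose by 0.43 (limma adjusted p = 0.0219). With shPCYT2-2 ACLY and ACSS2, which make cytosolic acetyl-CoA, rose by 0.28 and 0.26 (limma adjusted p = 0.0191 and 0.0337).

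Of 12 tested regulators of SREBP processing, 6 rose with shPCYT2-1 (50%, beside 16.6% of all tested genes) and 3 with shPCYT2-2 (25.0%, beside 7.71%), and none fell. RNF139, a ubiquitin ligase of the endoplasmic reticulum, rose with both hairpins, from 3.53 and 3.13 FPKM with shNT to 5.76 and 5.10 with shPCYT2-1 and 6.60 and 5.80 with shPCYT2-2 (log2 fold changes 0.57 and 0.73, limma adjusted p = 0.00659 and 0.0062). RNF145, another such ligase, which targets SCAP, rose by 0.61 with shPCYT2-1 (limma adjusted p = 0.00213). ERLIN1, of a sterol-bound complex in the same membrane, rose with both hairpins, by 0.54 and 0.45 (limma adjusted p = 0.00248 and 0.0107).

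Of 16 tested genes of sterol efflux, uptake and transport, 6 were called with shPCYT2-1, 5 higher and 1 lower (37.5%, beside 26.7% of all tested genes), and 1 was higher with shPCYT2-2 (6.25%, beside 7.71%, and so near the background). NCEH1, a cholesteryl ester hydrolase, rose with both, by 0.50 and 0.94 (limma adjusted p = 0.00843 and 0.00223), from 2.81 and 2.65 FPKM with shNT to 4.19 and 4.39 with shPCYT2-1 and 6.57 and 5.79 with shPCYT2-2. LIPA, the lysosomal lipase that frees cholesterol for NPC1 and NPC2, rose by 0.59 with shPCYT2-1 (limma adjusted p = 0.00347), and NR1H3, the sterol sensor LXR-alpha, fell by 0.32 (limma adjusted p = 0.0472). Of 13 genes of the isoprenoid branches, 3 rose with shPCYT2-1 (23.1%, beside 16.6% of all tested genes), among them PDSS1 of ubiquinone synthesis (0.39, limma adjusted p = 0.0194) and NUS1 of dolichol synthesis (0.33, limma adjusted p = 0.0421). With shPCYT2-2 0 of the 13 passed in limma, beside 12.5% of all tested genes, and 2 (15.4%) had an unadjusted p under 0.05, beside 31.1%.

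Markers of cell identity moved in the same libraries. Of 8 tested epithelial markers, 1 was called with shPCYT2-1, where 10.1% of all tested genes fell: CDX2 fell by 0.65 (limma adjusted p = 0.00136), and 6 of the 8 had values above 0. With shPCYT2-2, 3 of the 8 were called, where 12.5% of all tested genes were: KRT18 and KRT8 fell by 0.45 and 0.41 and CDH17 rose by 0.50 (limma adjusted p = 0.00314, 0.0048 and 0.021). ALB, among the markers of other cells, rose by 0.50 with shPCYT2-1 (limma adjusted p = 0.0446), whereas TTR and APOA2 of the same cells were not listed. The part of these shifts in the values of the sterol genes was not tested.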

How the data were processed

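RNA-Seq of 6 SW480 libraries was analysed from tables the authors deposited, 1 per library, with FPKM values by Ensembl identifier. The unit was read from the values, so TPM over part of the genes cannot be told apart, and only values above 0 are listed. The submitters' processing notes name GRCm38, mm10 and GRCh38 without roles, the extract protocol mentions 2 kits for every library, and neither aligner nor strand setting is given in the sources used here. Mitochondrial genes that encode proteins are absent from the tables (0 listed).

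Rows of the 115 identifiers repeated within a library were summed, and identifiers that held the same values in each library were merged into 1143 groups (FDFT1 and LSS each share a row with 1 further identifier), so that 21539 identifiers became 19437 genes. Names came from GENCODE release 29 and promoter windows from RefSeq (GRCh38.p14). Testing used limma 3.58.1 (R 4.3.3), two-sided, on log2(FPKM + 1) of the 12755 genes whose mean FPKM reached 0.5, with a trended variance and p-values adjusted over all of them by Benjamini-Hochberg. Single hairpins and their difference came from a fit with 3 groups, and the 4 knockdown libraries against shNT from a fit with 2 groups. The study's methods compare knockdown with vector control and do not say how the hairpins were grouped. Counts had been foreseen in the design, and limma replaced a count test because the files hold FPKM. The procedure was tested on simulated data. Figures were drawn with matplotlib 3.10.9.

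Values in every library are given for PCYT2, for SREBF1, SREBF2, SCAP, INSIG1 and INSIG2, for each gene with an adjusted p under 0.05 in any comparison and for the most, least and median abundant genes. From each list, counts and the fold changes of up to 2 genes each way with the largest change are given. Values printed for TCP1, RMC1, ISCA2, TM7SF2, MBTPS1, EPCAM, KRT20, CDH1, VIL1 and LGR5 stand outside that rule and were picked once the data had been seen. Ranges of FPKM for GGPS1, SQLE, LSS, HSD17B7 and STARD4 stand outside it as well. The 31 genes and the lists were chosen with earlier results of these data known. Tried as alternatives were another pseudocount, other expression limits, a replicate block, each library left out, median-ratio scaling, other variance models, a correction for GC content and length, and other groupings of the libraries. With read depth unknown, precision rests on the 2 libraries per group.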

Additional observations from a re-analysis of the deposited data

Results flagged for a closer look

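The hairpins against PCYT2 differed at 7 of the 31 sterol genes by a direct test of the difference in limma. In log2 fold change of shPCYT2-2 minus shPCYT2-1, the values were 0.47 for HMGCS1, 0.40 for FDFT1, 0.35 for INSIG1, 0.30 for INSIG2, -0.73 for SCAP, -0.62 for NPC1 and 0.58 for NPC2. In all tested genes 27.2% differed.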

How the results depend on the processing

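All 24 calls among the 31 genes kept their sign under 15 alternatives, and 5 kept an adjusted p under 0.05 under each. In the order shPCYT2-1 against shNT, shPCYT2-2 against shNT and shPCYT2-2 against shPCYT2-1, the calls numbered 9, 8 and 7. With each library left out in turn they ranged from 1 to 8, from 0 to 15 and from 4 to 13. Without an expression limit they were 2 with shPCYT2-1 and 0 with shPCYT2-2. With shPCYT2-1 they were 4 with median-ratio scaling and 4 without a variance trend. Over all tested genes these settings gave 3179 and 2944 calls in place of 3406. Between the hairpins they were 12 with the trend on GC content and length removed and 13 with only the 2 groups compared. Under these settings 4426 of 12739 and 3787 of 12755 tested genes passed between the hairpins, in place of 3468. Taking the mean of the 2 hairpins gave 7 calls in place of 0 for knockdown against shNT. Both fits give the same fold changes, and the fit with 2 groups counts differences between the hairpins as spread. Replicate numbers were not shown to pair the libraries, since deviations of equal numbers correlated at 0.0027, 0.0628 and 0.193 between the groups. With the number as a replicate block the difference between the hairpins had 11 calls in place of 7. Over all 12755 tested genes that block gave 3877 calls in place of 3468. Median-ratio scaling moved the calls over all tested genes from 2112 higher and 1294 lower to 1422 and 1757 with shPCYT2-1, and from 984 and 607 to 766 and 886 with shPCYT2-2, and no expression limit moved their number to 1918 and 138. A lone library of a group was assumed to vary like the others. Precision is limited by groups of 2 libraries.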
